A study of Mus musculus with 6 samples.

Results

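The genes described here encode the enzymes that build cholesterol, the proteins that control the transcription factor SREBP2, and a few proteins that move, store or oxidise the product. They were taken from a list of 28 genes by symbol, through the platform annotation, with the probe set of highest mean signal kept for each gene. Of the 28, 24 had a named probe set, 1 each, among 19505 genes in all. Acat2, Tm7sf2, Mbtps2 and Soat1 were not analysed here. The cells were RAW264.7, a mouse macrophage line derived from a virus-induced leukaemia, grown in high-glucose medium with foetal bovine serum. They were cultured for 3 days on a modified polyetheretherketone (PEEK) surface (3 arrays) or on pristine PEEK, the control (3 arrays). PEEK is a polymer used for bone implants, and the labels do not say how it was modified. Total RNA was measured on Affymetrix expression arrays, whose deposited values are log2 signals.

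Cells make cholesterol from acetyl-CoA through mevalonate, isoprenoid diphosphates, squalene and lanosterol, and the isoprenoids also supply lipid anchors for proteins. When sterol in the endoplasmic reticulum is low, SCAP escorts the precursor of SREBP2 to the Golgi, where 2 proteases release the active factor. It then switches on the genes of the pathway. When sterol is plentiful, INSIG proteins hold SCAP back in the reticulum. In macrophages the same pathway also responds to lipid uptake and to inflammatory signals. A bulk array reads the average over all cells, so more RNA per cell and more cells that use a gene cannot be told apart.

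The arrays were alike in overall signal, with medians over genes between 4.98 and 5.10 on the log2 scale. A background of 3.72 was set at the 95th percentile of 1412 odour and pheromone receptor genes, and 23 of the 24 measured genes lay above it on both surfaces. Of 9 measured macrophage markers, 9 lay above the background, with Lyz2, Spi1 and Csf1r at mean signals over 11 on both surfaces. Of these markers, Adgre1 was higher on modified PEEK (log2 change 0.54, adjusted p = 0.00669), and Fcgr1 (-0.85) and Itgam (-0.59) were lower. Of all genes, 5.24% were called higher and 5.15% lower. All 5 endothelial markers and 3 of 4 T cell markers lay below the background on both surfaces. Above it on both surfaces were 3 of 5 fibroblast and 3 of 5 epithelial markers, none of them called, with Col1a1 the brightest (5.82, 6.44 and 5.75 on modified PEEK, against 5.89, 5.70 and 5.82 on pristine PEEK). Of 6 osteoclast markers, genes of the bone-resorbing cells that macrophage precursors can form, 5 lay above it, 0 were called higher and 2 lower. The fallen genes were Acp5 (-1.41, adjusted p = 0.000369) and Dcstamp (-0.84, adjusted p = 0.00125), and the part of this fall in the results on the cholesterol genes was not tested. Whether the 3 arrays per surface are separate cultures is not stated, so the p-values rest on a spread that may be technical only.

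Because many of these genes moved together, the 250 bases before the annotated start are shown for the 4 largest rises with an entry in the RefSeq promoter table, and for Mbtps1, whose change was nearest to 0. Windows were read from GRCm38.p6 and are printed 5′ to 3′ on the strand of the gene. Capitals mark CCAAT, the core bound by NF-Y, a factor that acts together with SREBP at many sterol genes, and TCACNCCAC, a core of the sterol regulatory element, on either strand. Idi1 was read at chr13:8885356-8885605 (plus strand), Insig1 at chr5:28071162-28071411 (plus strand), Cyp51 at chr5:4104698-4104947 (minus strand), Hmgcs1 at chr13:119690101-119690350 (plus strand) and Mbtps1 at chr8:119558762-119559011 (minus strand).
Idi1: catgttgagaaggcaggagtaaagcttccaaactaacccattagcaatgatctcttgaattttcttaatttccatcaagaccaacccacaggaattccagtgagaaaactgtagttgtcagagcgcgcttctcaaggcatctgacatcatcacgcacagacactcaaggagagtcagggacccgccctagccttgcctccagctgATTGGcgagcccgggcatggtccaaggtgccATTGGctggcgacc
Insig1: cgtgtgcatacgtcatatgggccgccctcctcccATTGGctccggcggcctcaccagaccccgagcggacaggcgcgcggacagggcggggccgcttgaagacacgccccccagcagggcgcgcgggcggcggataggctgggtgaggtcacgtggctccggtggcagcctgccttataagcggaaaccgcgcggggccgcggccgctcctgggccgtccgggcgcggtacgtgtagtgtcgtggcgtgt
Cyp51: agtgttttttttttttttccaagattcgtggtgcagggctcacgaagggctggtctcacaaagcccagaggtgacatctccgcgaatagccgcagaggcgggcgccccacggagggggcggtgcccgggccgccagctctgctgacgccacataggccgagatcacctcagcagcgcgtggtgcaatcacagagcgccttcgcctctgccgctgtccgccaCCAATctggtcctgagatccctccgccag
Hmgcs1: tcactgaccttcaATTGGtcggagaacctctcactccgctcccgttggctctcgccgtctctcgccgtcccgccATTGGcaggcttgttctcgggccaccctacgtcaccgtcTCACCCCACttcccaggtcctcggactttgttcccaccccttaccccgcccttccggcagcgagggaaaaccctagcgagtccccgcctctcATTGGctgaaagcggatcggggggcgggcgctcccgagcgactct
Mbtps1: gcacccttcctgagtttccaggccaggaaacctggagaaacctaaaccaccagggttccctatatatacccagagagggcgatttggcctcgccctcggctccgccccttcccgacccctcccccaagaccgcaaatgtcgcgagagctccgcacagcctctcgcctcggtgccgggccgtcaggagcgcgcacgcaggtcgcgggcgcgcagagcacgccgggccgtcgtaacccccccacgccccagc

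The search ran over both strands of the 250 bases before each start and also covered GGGCGG, the GC box bound by Sp1, and CACGTG, an E-box. Each motif was counted on its own, also where its end letters overlap another. Promoters were present for 24 of the 28 listed genes, 20 of them measured. These 24 genes had 30 windows, and a gene was counted where any of its windows held the motif. Dhcr7 and Insig2, with several windows each, had CCAAT in only 1 of them. CCAAT stood in the promoter of 11 of 11 genes that rose and 6 of 9 measured genes that were not called, and in 39.2% of 15691 tested genes with a promoter. Those 6 were Insig2 and all 5 enzymes that were not called: Mvk, Ggps1, Hsd17b7, Ebp and Sc5d. Among measured enzymes with a promoter entry, the box was thus present whether or not they rose. The share was 51.5% of 852 tested genes called higher and 39.2% of 798 called lower. The TCACNCCAC core was found in 1 of the 24, Hmgcs1, where it starts 137 bases before the start, and in 1.22% of tested genes. Hmgcs1 also has 3 CCAAT boxes in the window, Idi1 has 2, Insig1 and Cyp51 have 1 each, and Mbtps1 has 0. Mbtps1 does not stand for all genes with a change near 0, as Hsd17b7 and Sc5d carry the box. GGGCGG was found in 10 of 11 promoters of genes that rose and 7 of 9 of those not called. It stood in 47.7% of tested genes, 59.8% of those above background on both surfaces, 62.7% of genes called higher and 63.8% of genes called lower. CACGTG was found in 2 of the 11, among them Insig1, and in 3 of the 9. Its share was 7.92% of tested genes, 9.64% of those above background, 7.28% of genes called higher and 10.4% of genes called lower. A match describes the letters of the window and does not show that a factor binds there. The search allowed no mismatch to the fixed letters and read only these 250 bases. A missing match therefore does not show that a gene lacks a sterol element.

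The comparison asked how growth on the modified surface changed these genes relative to pristine PEEK. Of the 24 measured genes, 15 were higher on modified PEEK and 0 lower at an adjusted p under 0.05 by limma, where 5.24% of all genes were called higher and 5.15% lower. At an unadjusted p under 0.05, 17 were higher and 2 lower, against 2206 higher and 2218 lower of all 19505 genes. An ordinary t statistic per gene, with the same adjustment, called 9 higher and 0 lower, against 797 and 751 of all genes. The median log2 change was 0.44 over the 24 genes, against 0.0088 over all 19505. All 3 arrays of modified PEEK lay above all 3 of pristine PEEK for 18 of the 24 genes and below them for 2, where 14.3% and 14.5% of all genes did so. Among the 17 measured enzymes, 12 rose, 5 were not called, and the median change was 0.51. The 15 became 9 (7 enzymes) without replicate 3 of modified PEEK. Leaving out a pristine PEEK array gave 8 (6 enzymes) for replicate 1 or 2 and 9 (7 enzymes) for replicate 3. Hmgcs1, Idi1, Sqle, Cyp51, Nsdhl, Insig1 and Stard4, 7 genes, were called higher in all 6 fits without 1 array and in the 11 other alternatives tried. The plot of single arrays by pathway step shows both the shared rise and the genes outside it.

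**Figure D1:**
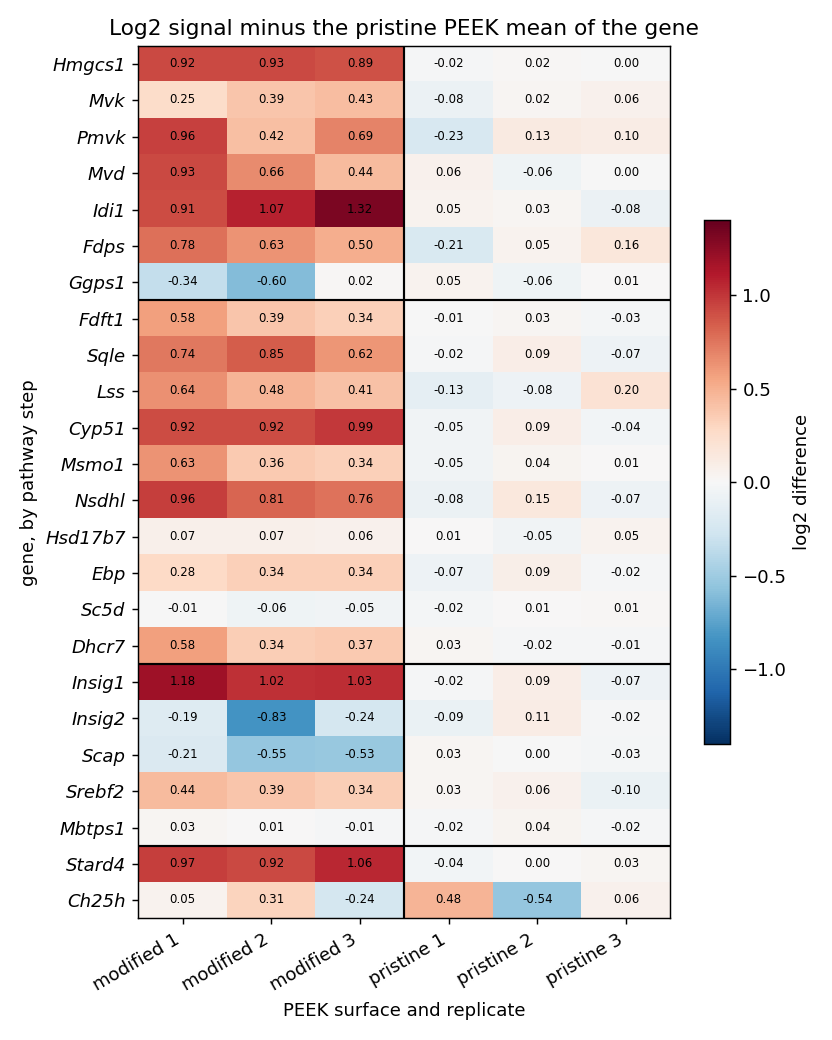
Each cell is the log2 signal of a gene on 1 array minus the mean of that gene on pristine PEEK, with genes in pathway order and black lines between mevalonate and isoprenoid enzymes, sterol enzymes, control genes and the last 2 genes. The 3 modified PEEK arrays are red for most enzymes, for Insig1 and for Stard4, near white for Hsd17b7, Sc5d and Mbtps1, and blue for Scap and Insig2. The enzyme gene Ggps1 is blue on modified PEEK replicates 1 and 2 and near white on replicate 3.

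The first measured enzyme of the pathway was Hmgcs1, the cytosolic synthase that adds acetyl-CoA to acetoacetyl-CoA ahead of mevalonate. Its signals were 9.33, 9.33 and 9.29 on modified PEEK, against 8.38, 8.42 and 8.40 on pristine PEEK. The arrays of each surface were nearly identical and the groups stood far apart. The log2 change was 0.91 ± 0.08 (SE), 1.88-fold higher (adjusted p = 0.000493, higher on 3 of 3 arrays). Idi1, the isomerase that interconverts the isoprenoid building blocks, had the largest rise of the 24 genes and the 156th largest of all genes. It read 7.47, 7.64 and 7.88 on modified PEEK, against 6.61, 6.59 and 6.48 on pristine PEEK. The groups did not overlap, although the modified PEEK arrays were more spread (SD 0.21, against 0.07 on pristine PEEK). The change was 1.10 ± 0.12 (SE), 2.15-fold (adjusted p = 0.00107).

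Between these enzymes, the mevalonate kinases and the decarboxylase moved less evenly. Mvd, which removes carbon dioxide to give the first isoprenoid, averaged 7.57 ± 0.24 on modified PEEK and 6.89 ± 0.06 on pristine PEEK (SD, n = 3 each), and rose by 0.68 (adjusted p = 0.0149). Its call was lost without pristine PEEK replicate 2 or 3, with an adjusted p of up to 0.0590. Pmvk, the phosphomevalonate kinase gene, read 6.63, 6.09 and 6.36 on modified PEEK, against 5.44, 5.80 and 5.77 on pristine PEEK. Its groups did not overlap, and its spread within a surface (SD 0.27 and 0.20) was among the widest of the enzymes. Pmvk rose by 0.69 ± 0.16 (SE; adjusted p = 0.0301), and that call held in 1 of the 6 fits without 1 array, that without modified PEEK replicate 2 (adjusted p up to 0.101 in the others). Mvk, which adds the first phosphate to mevalonate, was higher by 0.36 but not called (adjusted p = 0.0552; 95% interval 0.13 to 0.58).

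Fdps, which makes farnesyl diphosphate, the last intermediate shared by sterols and prenyl groups, read 8.14, 7.99 and 7.86 on modified PEEK, against 7.15, 7.41 and 7.52 on pristine PEEK. The groups did not overlap. Fdps rose by 0.64 (1.55-fold, adjusted p = 0.0162), a call that did not hold when replicate 1 of pristine PEEK was left out (adjusted p = 0.0554). Ggps1, which diverts farnesyl diphosphate to geranylgeranyl groups for protein anchors, was the exception on this part of the pathway. It read 7.16, 6.89 and 7.51 on modified PEEK, against 7.55, 7.44 and 7.51 on pristine PEEK. The modified PEEK arrays were spread over a wider range that reached the pristine values, so the groups overlapped. The change of Ggps1 was -0.31 with a 95% interval of -0.66 to 0.04 (adjusted p = 0.290), which lies below that of Fdps (0.34 to 0.93).

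**Figure D2:**
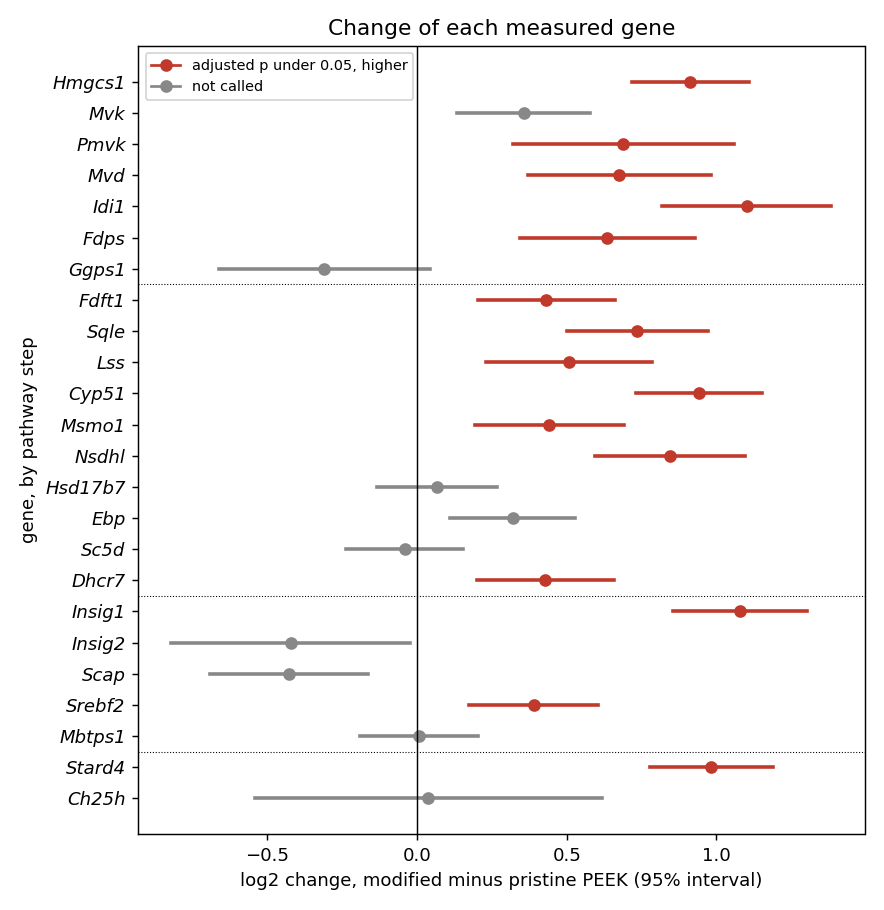
Points are log2 changes, modified minus pristine PEEK, and bars are 95% intervals from limma, with the 15 genes called higher in red and the 9 not called in grey. Idi1 (1.10), Insig1 (1.08) and Stard4 (0.98) lie farthest right, and Scap (-0.43) and Insig2 (-0.42) farthest left.

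On the sterol branch, 7 of 10 measured enzymes rose, with a median change of 0.44 over the 10. The largest rise was that of Cyp51, the lanosterol demethylase gene. Its signals were 8.56, 8.56 and 8.63 on modified PEEK, against 7.59, 7.73 and 7.60 on pristine PEEK. The groups were clearly separate, and the change was 0.94 ± 0.09 (SE), 1.92-fold (adjusted p = 0.000561). Nsdhl, a dehydrogenase that acts in removing methyl groups from the sterol ring, read 9.32, 9.17 and 9.11 on modified PEEK, against 8.27, 8.50 and 8.28 on pristine PEEK. It rose by 0.85 ± 0.11 (SE; adjusted p = 0.00203), again without overlap. Sqle, the squalene monooxygenase gene and a rate-limiting step after mevalonate, had 7.93, 8.04 and 7.81 on modified PEEK, against 7.17, 7.28 and 7.12 on pristine PEEK. Its change was 0.74 ± 0.10 (SE), 1.67-fold (adjusted p = 0.00289).

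The 4 other sterol enzymes that rose did so by smaller amounts. Lss, the cyclase that forms lanosterol, averaged 8.52 ± 0.12 on modified PEEK and 8.01 ± 0.18 on pristine PEEK (SD, n = 3 each; change 0.51, adjusted p = 0.0323). Msmo1, the methylsterol monooxygenase gene, changed by 0.44 (adjusted p = 0.0366), Fdft1, the squalene synthase gene, by 0.43 (adjusted p = 0.0291), and Dhcr7, a sterol reductase gene, by 0.43 (adjusted p = 0.0301). Fdft1 and Msmo1 passed in none of the 6 fits without 1 array (adjusted p up to 0.114 and 0.123), Lss passed only without pristine PEEK replicate 3 (up to 0.118), and Dhcr7 only without modified PEEK replicate 2 (up to 0.112). Their changes in those fits all stayed between 0.35 and 0.61.

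Among the remaining sterol enzymes, Ebp, the sterol isomerase gene, averaged 7.66 ± 0.03 on modified PEEK and 7.34 ± 0.08 on pristine PEEK (SD, n = 3 each). Its change of 0.32 was not called (adjusted p = 0.0664; 95% interval 0.11 to 0.53), although the groups did not overlap. Hsd17b7, a ketosteroid reductase gene of the demethylation steps, read 7.62, 7.62 and 7.61 on modified PEEK, against 7.56, 7.50 and 7.60 on pristine PEEK. These values were close together, and the 95% interval of the change ran from -0.13 to 0.27 (change 0.07, adjusted p = 0.723). Sc5d, a desaturase gene near the end of the pathway, had 9.53, 9.47 and 9.49 on modified PEEK, against 9.51, 9.55 and 9.55 on pristine PEEK. Its groups overlapped, and the interval of the change was -0.24 to 0.16 (adjusted p = 0.848). The upper bounds for Hsd17b7 and Sc5d lie below the lower bounds for Cyp51 (0.73), Nsdhl (0.60) and Sqle (0.50). The difference between enzymes was not tested in itself.

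The control genes did not move as a block. Of 5 measured, Insig1 and Srebf2 rose and 3 were not called. Insig1, whose protein holds SCAP in the reticulum and whose gene is itself a target of SREBP, read 8.55, 8.39 and 8.40 on modified PEEK, against 7.35, 7.46 and 7.30 on pristine PEEK. The groups stood far apart, and the rise of 1.08 ± 0.10 (SE; adjusted p = 0.000455) was the 169th largest of all genes. Srebf2, the SREBP2 gene, had 9.86, 9.81 and 9.76 on modified PEEK, against 9.45, 9.48 and 9.32 on pristine PEEK. It rose by 0.39 ± 0.09 (SE), 1.31-fold (adjusted p = 0.0338), and passed in none of the 6 fits without 1 array (lowest adjusted p = 0.0719).

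Insig2, the second retention protein, read 5.56, 4.91 and 5.50 on modified PEEK, against 5.66, 5.85 and 5.73 on pristine PEEK. All 3 modified PEEK arrays were lower, but the size of the difference rested on replicate 2. The change was -0.42 (95% interval -0.82 to -0.02; adjusted p = 0.194), and -0.21 without modified PEEK replicate 2. Scap, the escort of SREBP2, had 7.64, 7.30 and 7.32 on modified PEEK, against 7.88, 7.85 and 7.82 on pristine PEEK. Its arrays did not overlap either, with a change of -0.43 ± 0.11 (SE) that was not called (adjusted p = 0.0534). Scap was called lower in 7 of the 17 alternatives, with adjusted p from 0.00279 with an intensity trend to 0.456 when scaled to the poly-A spikes. Mbtps1, encoding the protease that makes the first cut in SREBP2, read 8.55, 8.54 and 8.51 on modified PEEK, against 8.51, 8.56 and 8.51 on pristine PEEK. The groups overlapped almost fully, with a 95% interval of -0.19 to 0.20 for the change (adjusted p = 0.976).

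**Figure D3:**
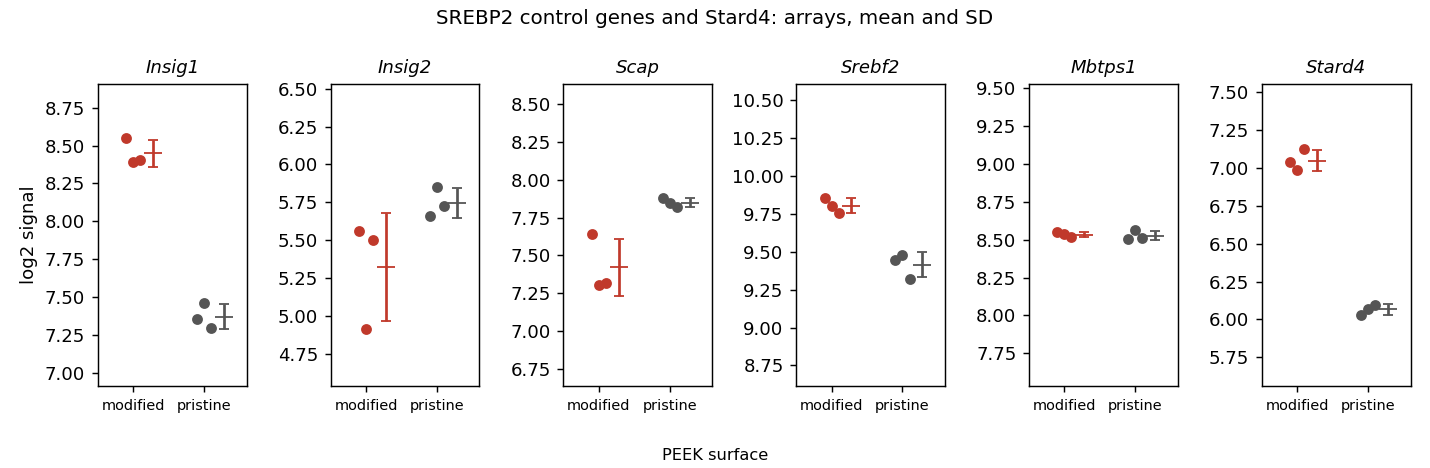
Points are log2 signals of single arrays and bars are means with SD (n = 3), with modified PEEK in red on the left and pristine PEEK in grey on the right of each panel, and every vertical axis spans the same range of 2 on the log2 scale. Insig1, Srebf2 and Stard4 are higher on modified PEEK, Scap and Insig2 lower without a call, and Mbtps1 overlaps.

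Beyond synthesis, Stard4, which carries cholesterol through the cytosol between membranes, had 7.04, 6.99 and 7.12 on modified PEEK, against 6.03, 6.07 and 6.10 on pristine PEEK. The arrays were tight on both surfaces and the change was 0.98 ± 0.09 (SE), 1.98-fold (adjusted p = 0.000459). Ch25h, the hydroxylase that makes an oxysterol able to block SREBP2 processing, read 3.07, 3.33 and 2.77 on modified PEEK, against 3.50, 2.48 and 3.08 on pristine PEEK. All 6 values lay below the background of 3.72, so no fold is given (adjusted p = 0.956).

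Neighbouring gene lists were set beside the pathway as counts and medians of log2 change. Of all genes, 5.24% were called higher and 5.15% lower, so a single call in a short list is not read as a result about it. Of 10 measured fatty acid genes that SREBP factors drive, 8 rose, 0 fell and the median was 0.56. They were led by the desaturase genes Fads2 (1.09, adjusted p = 0.00030) and Scd1 (0.85) and by the elongase gene Elovl6 (0.64), while Mid1ip1, a cofactor of acetyl-CoA carboxylase, was not called (-0.28, adjusted p = 0.104). When replicate 3 of pristine PEEK was left out, 4 of them rose, and 594 of all genes were called higher, against 1023 as reported. Of 6 genes of acetyl-CoA supply and the ketone body branch, 1 rose: Acat1, the mitochondrial acetoacetyl-CoA thiolase gene (0.62, adjusted p = 0.00520). The median of that list was 0.36, and Oxct1, a ketone body enzyme gene, was not called (0.35, adjusted p = 0.0565). With an intensity trend 4 of the 6 were higher, and 1586 of all genes were called higher. Of 16 genes that use isoprenoids, downstream of Fdps and Ggps1, 1 rose, Chml, a Rab escort gene (0.46, adjusted p = 0.0167), and the median was 0.03. Leaving out any array of pristine PEEK (replicate 1, 2 or 3) left 0 of the list called. Nus1, of dolichol synthesis, was at 9.13 on modified PEEK and 9.20 on pristine PEEK and was not called (adjusted p = 0.740). The 1 of 16 called higher in this list is near the share of all genes (5.24%).

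Genes that act on INSIG, SCAP or the reductase in the reticulum or form the COPII coat that carries SCAP gave 0 higher and 2 lower of 18, with a median of -0.16. The fallen genes were Erlin1 (-0.54, adjusted p = 0.0169) and Erlin2 (-0.44, adjusted p = 0.0283), whose proteins take part in degradation at the reticulum. Leaving out replicate 1, 2 or 3 of pristine PEEK left 0 lower, and leaving out replicate 2 or 3 of modified PEEK left 1. Scaling to the spikes left 0, while an intensity trend gave 7. Over all 19505 genes, 1004 were lower as reported and 548 to 608 without 1 pristine PEEK array. Scaling to the spikes gave 290 over all genes and an intensity trend 1719. Sar1a, a COPII GTPase gene, was not called (-0.13, adjusted p = 0.461). As 5.15% of all genes were called lower, 2 of 18 is not read as a result about this list. Of 20 sterol transport and ester turnover genes, 0 rose and 4 fell, with a median of -0.21. Besides Osbpl9, they were Osbpl2 (-1.05, 2.07-fold lower, adjusted p = 0.00208), Npc1, the lysosomal cholesterol exporter gene (-0.52, adjusted p = 0.0107), and Gramd1b, a sterol transfer gene (-0.49, adjusted p = 0.0184). Leaving out replicate 2 or 3 of pristine PEEK left 2 lower and scaling to the spikes left 1, while an intensity trend gave 11. Each of these settings moved the count over all genes in the same direction, as given above. Lamp2 was not called (-0.25, adjusted p = 0.124). Of 9 oxysterol enzyme and sensor genes, 1 rose, Gpr183, a receptor for an oxysterol made in a pathway that begins with CH25H (1.19, 2.28-fold, adjusted p = 0.000557), and Cyp27a1 was not called (0.03, adjusted p = 0.901). As 5.24% of all genes were called higher, 1 of 9 is not read as a result about that list.

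Genes of dividing cells moved with the pathway. Of 19 measured, 17 were higher on modified PEEK and 0 lower, with a median of 1.11, led by Kif11 (1.48), Ccna2 (1.33) and Plk1 (1.30), and Pcna was not called (0.28, adjusted p = 0.101). Relative to the pristine PEEK mean of each gene, the dividing-cell list stood at 1.04, 1.00 and 1.04 on the modified PEEK arrays, and the 17 cholesterol enzymes at 0.58, 0.47 and 0.50. On the pristine PEEK arrays the dividing-cell list stood at -0.05, 0.04 and 0.02, and the enzymes at -0.04, 0.03 and 0.02. The part of cell division in the rise of the cholesterol enzymes was not tested.

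**Figure D4:**
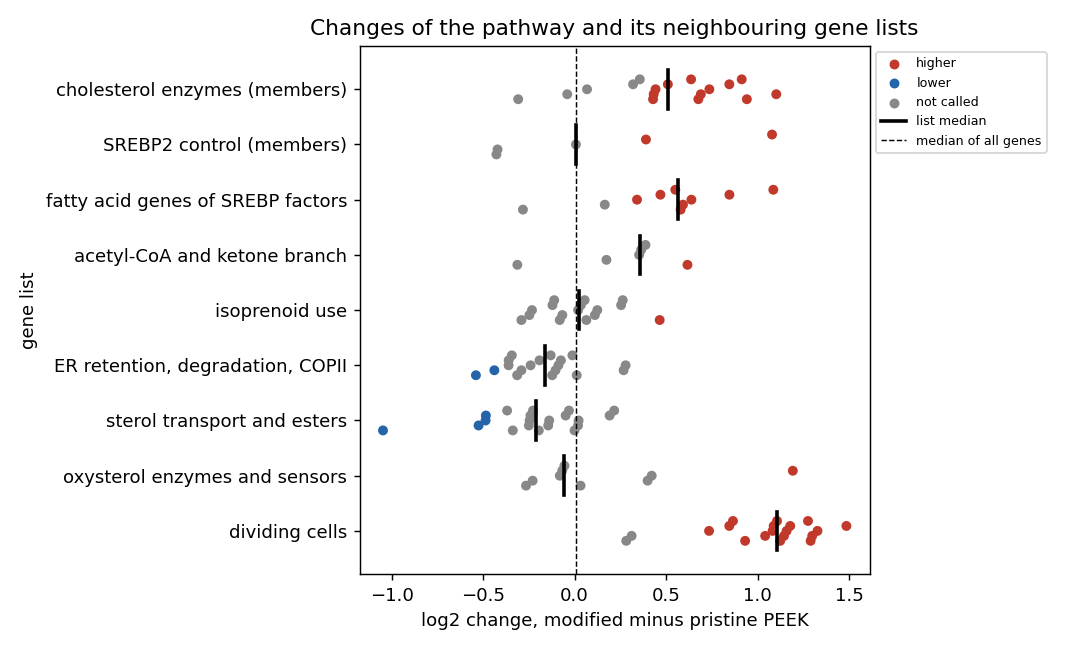
Each point is the log2 change of 1 gene, modified minus pristine PEEK, red where called higher, blue where called lower and grey where not called, with the list median as a black bar and the median of all genes (0.0088) dashed. The cholesterol enzymes (median 0.51), the fatty acid genes (0.56) and the dividing-cell genes (1.11) lie to the right, and the sterol transport genes (-0.21) to the left.

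The calls differed in how far they depended on the processing, as the map of calls by setting shows. Of the 24 genes, 7 were called in all alternatives, 11 in some and 6 in none, these being Ggps1, Hsd17b7, Sc5d, Insig2, Mbtps1 and Ch25h. The spiked poly-A controls had mean signals of 6.71 ± 0.14 on modified PEEK and 6.96 ± 0.15 on pristine PEEK (SD, n = 3 each), and scaling the arrays to them moved the median change of all genes to 0.26. The median of the 24 genes was then 0.68. Such a scaling shifts every gene on an array alike, so it leaves their distance from the median of all genes at 0.43 by construction. With that scaling 17 of the genes were higher and 0 lower, and Sc5d changed sign (0.21, adjusted p = 0.377).

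**Figure D5:**
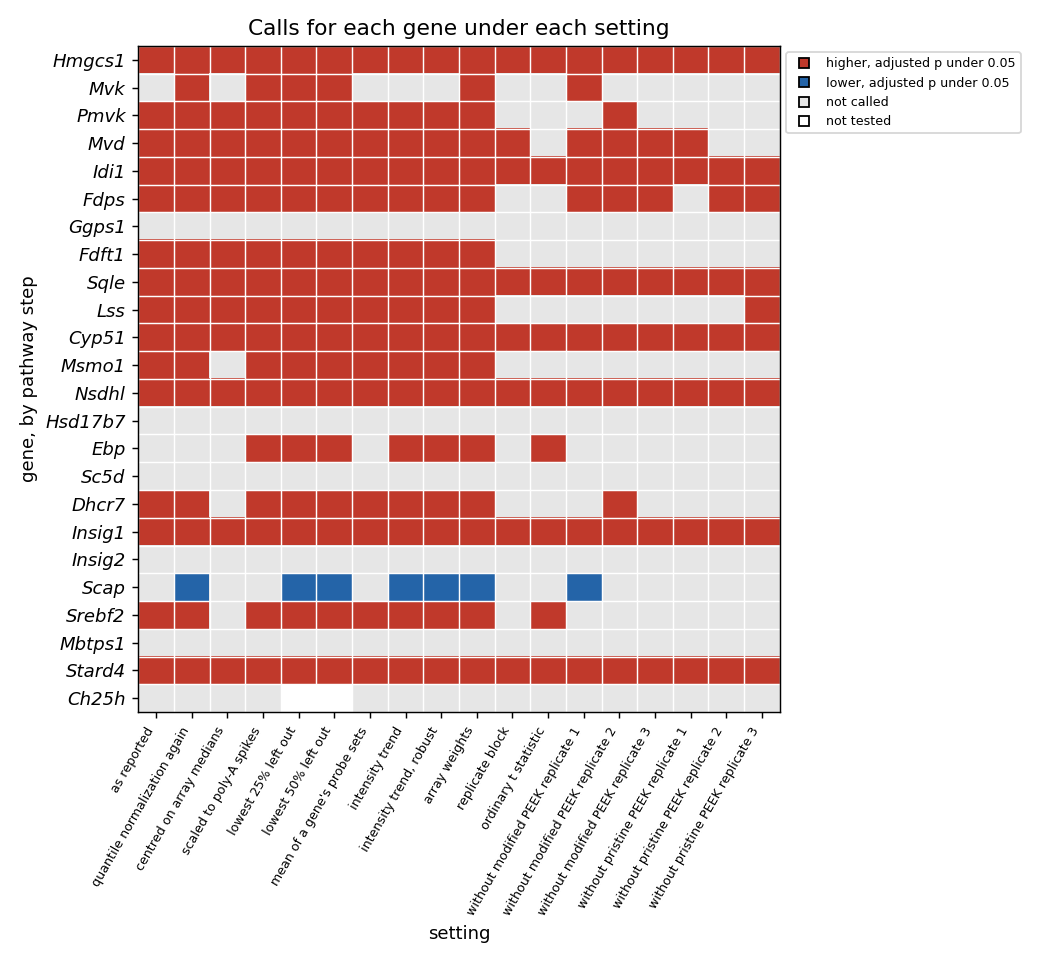
Rows are genes in pathway order and columns are the reported test and 17 alternatives, with red for called higher, blue for called lower, grey for not called and white for not tested. The rows of Hmgcs1, Idi1, Sqle, Cyp51, Nsdhl, Insig1 and Stard4 are red throughout, and Scap is blue in 7 alternatives.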

How the data were processed

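The deposited values are log2 signals per probe set from 6 arrays. The submitters' processing notes list RMA, with no version or role. The log2 scale was read off the range of the values (0.941 to 12.4). Of 29129 features, 19572 probe sets had 1 gene in the platform annotation. For 55 genes with several probe sets the brightest on average was used, which left 19505 genes. Promoter coordinates are those of the RefSeq table.

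Surfaces were compared over all genes with limma 3.58.1 in R 4.3.3 (a two-sided moderated test with no intensity trend, 4 residual and 4.09 prior degrees of freedom), with Benjamini-Hochberg adjustment over all genes and a threshold of 0.05. Changes are modified minus pristine PEEK, and array compression can make a fold smaller than the true ratio. The test was also run on simulated arrays whose noise was independent between genes. That run does not cover genes that vary together, and no result here rests on it. The 3 arrays per surface limit the precision.

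Genes and lists were chosen with earlier results of these data known. All measured genes of the list are named. From each neighbouring list, up to 3 called genes with the largest change and the not called gene at the highest level are named; Osbpl9 and the cell type markers were named after their values were seen. The alternatives changed the scaling (a second quantile normalization, median centring, or 24 poly-A spike probe sets), the filter (the dimmest 25% or 50% of genes dropped), the probe-set rule (the mean over a gene), the variance model (intensity trend, robust trend, array weights, ordinary t), the design (a block for replicate number) and the arrays (each dropped once).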

Additional observations from a re-analysis of the deposited data

How the results depend on the processing

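The number of pathway genes higher on modified PEEK was 15 as reported, 12 to 17 under the other normalizations, filters, probe-set rule, trends and array weights, 9 with an ordinary t statistic, and 8 to 11 without 1 array. The number lower was 0 as reported and 1 (Scap) with quantile normalization again, with the lowest 25% or 50% of genes left out, with an intensity trend, robust or not, with array weights and without modified PEEK replicate 1 (0 to 1 over the fits without 1 array). The reported 1023 genes higher and 1004 lower over all genes were 1575 and 290 when scaled to the poly-A spikes, 1586 and 1719 with an intensity trend, 1580 and 1702 with robust fitting as well, and 594 to 903 and 548 to 1048 without 1 array; 1522 were lower with the lowest 50% left out. Fitting the replicate number as a block gave 8 pathway genes higher and 0 lower, and 646 and 622 over all genes. Deviations of same-numbered arrays from their surface mean had correlations over genes of -0.17, -0.16 and 0.07, and those of unlike-numbered arrays ran from -0.07 to 0.22. With 3 arrays per surface, these values cannot show whether same-numbered arrays share a batch. The labels do not say that they do, so the block is given as an alternative only. Sign changes were seen for genes near 0: Mbtps1 was -9.96e-05 with quantile normalization again and -0.00297 to 0.0248 without 1 array, Ch25h was -0.0399 with array weights and -0.23 to 0.28 without 1 array, and Sc5d was 0.21 when scaled to the spikes. The cause was not tested. Ch25h was not tested with the lowest 25% or 50% of genes left out.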

Other observations

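Within a surface the cholesterol enzymes did not sit evenly over the arrays. On modified PEEK, replicate 1 had the highest signal for 9 of the 17 enzymes and replicate 3 the lowest for 9, where over all genes replicate 1 was highest for 39.7% and replicate 3 lowest for 33.8%. On pristine PEEK, replicate 1 was the lowest array for 10 of the 17 enzymes, against 34.6% of all genes. Idi1 ran the other way on modified PEEK, with replicate 3 highest at 7.88, and Mvk had its lowest modified PEEK value on replicate 1. Genes on 1 array are not independent, and these counts were not tested.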
